A study of Mus musculus with 2 samples.

Results

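Hemoglobin-rich erythroid cells were a small population in libraries made from CD11b-selected mouse cochlear cells, and they are described here from 94 of 6662 cell barcodes. A barcode was a member when at least 200 genes were detected and at most 10% of its UMIs (unique molecular identifiers, each a counted transcript) were mitochondrial. The 4 adult globin genes Hba-a1, Hba-a2, Hbb-bs and Hbb-bt had to make up at least 5% of its UMIs, and the neutrophil genes S100a8 and S100a9 less than 3%. Fewer than 5 UMIs of C1qa, C1qb and C1qc together, which mark macrophages, and fewer than 4 of the monocyte genes Ccr2 and F13a1 were allowed. Because the members were chosen by their globin counts, the globin levels below are descriptions of the choice and not findings.

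Electrode-implanted cochleae gave 1 library and non-implanted cochleae gave 1 library, both from mice on the C57BL/6J/B6 background with the genotype CX3CR1+/GFP Thy1+/YFP, a GFP reporter at the fractalkine receptor locus and a YFP reporter driven by Thy1, with males and females pooled. Implanted cochleae were taken 33 days after implantation of an electrode array, and the labels give no time for the non-implanted ones. Cells that bound CD11b microbeads, CD11b being a surface protein of myeloid cells, were sequenced by droplet-based 3' single-cell RNA sequencing. The labels leave out the number of animals, any drug in the electrode, and whether the non-implanted cochleae were the opposite ears of implanted mice. Each group is a single library, so the differences have no replicate check and no test, and all intervals are 95% intervals that cover counting error only.

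Red cells form from progenitors that divide several times while they fill with hemoglobin, then leave the cell cycle, condense and expel the nucleus and lose their ribosomes and mitochondria. Hemoglobin joins alpha and beta globin chains to heme, which is made by 8 enzymes that start and finish in the mitochondrion. In adult mice this takes place mainly in bone marrow and spleen. Globin and heme genes share regulation by GATA1, which binds GATA motifs, and by KLF1, which binds CACCC motifs.

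The promoters of the genes that carry most of the signal are shown because the selection rests on the 4 globin genes, and Alas2, the first enzyme of heme synthesis in red cells, tracks them without being part of the rule. Each line holds the 120 bases before the RefSeq start of the gene on build GRCm38.p6, read 5′ to 3′ on the gene's strand, with the letters CACCC of KLF1 motifs, the letters AGATAA of GATA motifs and the TATA-box letters TATAA in capitals on either strand, a match on the other strand being shown as its reverse complement.
Hbb-bs, chr7:103827929-103828048, minus strand: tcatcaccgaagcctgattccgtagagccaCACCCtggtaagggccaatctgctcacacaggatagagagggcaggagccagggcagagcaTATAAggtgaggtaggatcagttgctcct
Hbb-bt, chr7:103813924-103814043, minus strand: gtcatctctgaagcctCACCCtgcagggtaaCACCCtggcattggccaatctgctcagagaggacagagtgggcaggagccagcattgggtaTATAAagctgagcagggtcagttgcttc
Hba-a1, chr11:32283552-32283671, plus strand: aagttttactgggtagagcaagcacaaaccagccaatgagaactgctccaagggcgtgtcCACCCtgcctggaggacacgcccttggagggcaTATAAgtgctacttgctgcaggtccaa
Hba-a2, chr11:32296372-32296491, plus strand: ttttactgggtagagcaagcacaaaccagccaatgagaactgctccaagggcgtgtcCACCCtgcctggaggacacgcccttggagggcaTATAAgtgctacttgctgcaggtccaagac
Alas2, chrX:150547297-150547416, plus strand: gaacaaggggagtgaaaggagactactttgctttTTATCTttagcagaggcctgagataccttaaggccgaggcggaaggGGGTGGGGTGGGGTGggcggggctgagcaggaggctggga
The CACCC letters were in all 5 windows and in 31.7% of the 32851 promoter windows of the same length. TATAA was in the 4 globin windows and in 11.8% of all windows, and AGATAA was in the Alas2 window and in 4.36% of all windows. In the Alas2 window the 3 CACCC matches follow each other without overlap and lie on the opposite strand. The windows of Hba-a1 and Hba-a2 were identical over 117 of 117 aligned bases, whereas those of Hbb-bs and Hbb-bt matched at 88 of 119 bases (73.9%). On GRCm38 the annotated genes span chr7:103826534-103828096 for Hbb-bs, chr7:103812524-103813996 for Hbb-bt, chr11:32283511-32284465 for Hba-a1, chr11:32296489-32297298 for Hba-a2 and chrX:150547375-150570638 for Alas2. Hba-a1 and Hba-a2 are known as near-identical copies, so reads may be split between them. A match describes the letters in the window and is not evidence of binding.

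The implanted library held 63 members among 3149 barcodes that passed the cell filter, 2.00% (1.54 to 2.55, exact Clopper-Pearson interval). The non-implanted library held 31 among 3513, or 0.882% (0.600 to 1.25). The difference was 1.12 percentage points (0.550 to 1.73, Newcombe interval). How many cells each animal contributed, and how the bead selection passed cells of this kind, cannot be told apart from implantation. The libraries had 3231 and 3572 deposited barcodes with 19593003 and 21577033 UMIs, and the median member had 7113 UMIs (606 to 20041) and 1875 genes (202 to 4867) in the implanted library against 8902 UMIs (734 to 28744) and 1977 genes (207 to 5408) in the non-implanted library. Other barcodes had medians of 4269 and 4217.5 UMIs and 1364 and 1328.5 genes. Of the barcode sequences, 6 occurred in both libraries and 0 of them were members.

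Globin made up 31.3% of the members' UMIs in the implanted library and 37.3% in the non-implanted library, against 0.0801% and 0.0534% of the UMIs of all other barcodes. No globin UMI was found in 69.3% and 83.7% of those other barcodes. The median member had a globin share of 33.3% (6.00 to 87.4) in the implanted library and 38.0% (8.32 to 92.7) in the non-implanted library. Around the 5% limit the barcodes were sparse: the lowest members had 6.00, 6.44 and 7.07% in the implanted library and 8.32, 10.4 and 14.2% in the non-implanted library. The barcodes just outside that met the other limits had 4.42, 4.20 and 2.61%, and 3.72, 2.59 and 1.04%.

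The label of erythroid cells fits genes that the rule did not use. Car2, a carbonic anhydrase abundant in red cells, was detected in 63 of 63 implanted and 29 of 31 non-implanted members, and Alas2 in 62 and 30. Of 11 non-globin erythroid markers, among them Alas2, Car2, Car1, Slc4a1, Rhag, Klf1, Epb42, Hemgn, Ermap and Tspan33, at least 5 were detected in 61 of 63 implanted and 29 of 31 non-implanted members, and all 11 in 27 and 14. The same 5-marker criterion was met by 1 of 2360 and 2 of 2860 neutrophil-lineage barcodes, those with at least 3% S100a8 and S100a9. Their summed level was 27956 UMIs per 1000000 non-globin UMIs (CPM in what follows; 27394 to 28526) in implanted members and 25668 (24960 to 26391) in non-implanted members, against 234 and 165 in other barcodes. Among genes with at least 50 member UMIs, Apol11b (1773 times) and Alas2 (777) had the highest ratios of members over other barcodes. Ypel4 (746), Slc6a9 (614) and Fn3k (600) came next, followed by Gm867, Slc4a1, Trim10, the alpha globin pseudogene Hba-ps4 and Slfn14. Levels in other barcodes were near 0, at 0.150, 3.64, 0.225, 0.524 and 0.499 CPM for the first 5, so their order is uncertain. Apol11b was detected in 16 of 63 implanted and 13 of 31 non-implanted members. Ptprc, the pan-leukocyte gene for CD45, had 18 UMIs in 5 implanted members and 10 UMIs in 3 non-implanted members.

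Markers of other cell types had lower sums in the members than in other barcodes, though by little for some lists. The 10 neutrophil-lineage genes summed to 2894 CPM in implanted and 2384 in non-implanted members, against 280416 and 314321 in other barcodes. The 10 monocyte and macrophage genes summed to 29.7 and 36.1, against 1840 and 1580, with C1qc at 0 UMIs. The rule limited C1qa, C1qb, C1qc, Ccr2 and F13a1 of that list, and S100a8 and S100a9 of the neutrophil-lineage list. The low sums of these lists are therefore in part fixed by the choice of members. Mpo and Ctsg of the promyelocyte list were at 0 UMIs, and that list had 7 and 1 UMIs in all. Mast cell and basophil genes had 0 UMIs in either library's members, T and natural killer genes 1 and 0, platelet genes 8 and 12 (all 12 from Gp9), endothelial genes 6 and 1, and fibroblast and bone genes 8 and 0. Antigen-presenting genes had 35 and 7 UMIs, cochlear glia genes 30 and 18, of which Mbp held 26 and 16, and osteoclast genes 121 and 66, of which Acp5, the tartrate-resistant acid phosphatase, held 112 and 61. In the B-lineage list 8 of 9 genes, Cd79a and Pax5 among them, were at 0 in the members of both libraries. Cochlear glia genes were at 89.0 and 92.7 CPM in members against 122 and 115 in other barcodes. Endothelial genes were at 17.8 and 5.15 against 22.7 and 17.4, and B-lineage genes at 104 and 5.15 against 153 and 96.2. Osteoclast genes were at 359 and 340 against 1072 and 1098, and platelet genes at 23.7 and 61.8 against 570 and 109. Antigen-presenting genes were at 104 and 36.1 against 2728 and 3190. Scrublet, which scores barcodes for likely doublets, marked 84 and 102 barcodes and 0 members.

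A few members stood apart from their library. Fewer than 5 erythroid markers were found in 2 implanted and 2 non-implanted members. One implanted member with 14.7% globin, 3 erythroid markers and 14064 UMIs held all 35 implanted UMIs of Ebf1, a B-cell and stromal factor, and 87.1% of Fos, 92.8% of Fosb and 91.0% of Atf3. Another with 16.5% globin, 11 erythroid markers and 1.88% S100a8 and S100a9 held all 14 UMIs of the neutrophil receptor gene Csf3r. One non-implanted member with 72.3% globin, 1 erythroid marker and 1.96% S100a8 and S100a9 held all 9 UMIs of Csf3r and 87.0% of those of Fos in that library. Leaving out the members with fewer than 5 erythroid markers or at least 1% S100a8 and S100a9 left 60 implanted and 29 non-implanted members. The neutrophil-lineage genes then summed to 1893 and 1519 CPM, and Ptprc had 4 and 2 UMIs. S100a8 and S100a9 belong to the neutrophil-lineage list, so its lower sum follows in part from leaving those members out.

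Beta globin exceeded alpha globin in every member. Hbb-bs gave 17.3% of implanted and 19.8% of non-implanted member UMIs, Hbb-bt 5.00% and 6.01%, Hba-a1 5.64% and 7.32%, and Hba-a2 3.38% and 4.12%. Alpha genes made up a median of 28.1% of a member's globin UMIs (22.0 to 40.7) in the implanted library and 31.1% (24.6 to 36.9) in the non-implanted library, on the scale of 3' UMIs. These are shares of captured transcripts and not of protein chains. Embryonic and minor globin genes were near 0: Hbb-bh1 had 9 and 4 UMIs, Hbb-y 5 and 2, Hba-x 2 and 0, and Hbb-bh2 0 and 0, while Hbq1b, a theta globin gene next to the alpha genes, had 101 UMIs in 41 implanted members and 39 in 19 non-implanted members. Nearly all globin UMIs in both libraries thus came from the 4 adult genes.

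The globin share was used to order the members in 3 ranges, low (5 to under 20%), middle (20 to under 50%) and high (50% or more), which are ranges and not cell types. They held 18, 30 and 15 implanted and 5, 15 and 11 non-implanted members, and 2 implanted and 3 non-implanted members lay within 2 points of 20%, 2 and 2 within 2 points of 50%. Levels of other genes are given in CPM of non-globin UMIs, so that globin does not dilute them by arithmetic. With a higher globin share the rest of the transcriptome was smaller. Median genes per barcode were 3239.5, 1891.5 and 610 in the implanted low, middle and high ranges, and 4491, 2351 and 339 in the non-implanted ranges. Median non-globin UMIs were 10074, 4830 and 2029 in the implanted library and 16402, 6184 and 744 in the non-implanted library. Median globin UMIs were 1478, 2210.5 and 3763 in the implanted library and 2852, 2718 and 5182 in the non-implanted library. The share is therefore set by more globin and by less of everything else, and depth moves with it. Over members, Spearman's rho of globin share with genes detected was -0.78 in the implanted library (n = 63) and -0.95 in the non-implanted library (n = 31), a description, since both measures come from the same UMIs.

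**Figure D1:**
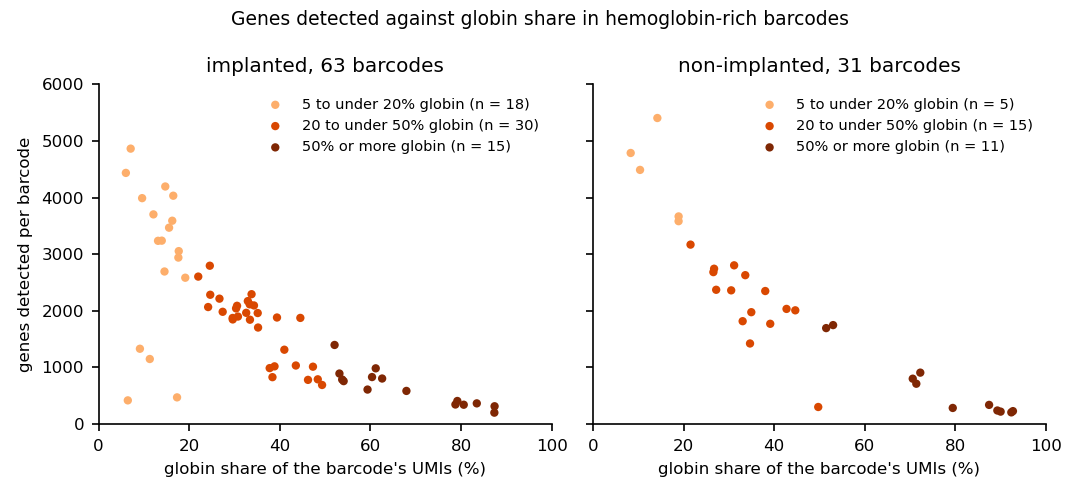
Genes detected per barcode (vertical axis) against the globin share of the barcode's UMIs in percent (horizontal axis), 1 point per member, with the implanted library on the left and the non-implanted library on the right and colour for the globin range. Genes detected were fewest at the highest globin shares, with medians of 610 and 339 in the ranges of 50% or more, and 4 implanted members in the lowest range stood below the rest with few genes.

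Between the low and the high range, most genes were lower per non-globin UMI and a minority was much higher. Of 2197 genes with at least 20 UMIs over these ranges in the implanted library, 19.4% were at least 1.5-fold higher in the high range and 66.5% at least 1.5-fold lower, with a median log2 ratio of -1.58. In the non-implanted library 26.9% of 1179 genes were higher and 49.1% lower, with a median of -0.53. These shares are the background for the counts of each list in this comparison.

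Genes of terminal maturation made the largest gain among the lists measured for erythroid functions. Of the 24 measured in the implanted library 20 were at least 1.5-fold higher in the high range and 2 lower, and of the 22 in the non-implanted library 18 were higher and 1 lower. Their summed level was 10783, 25560 and 87509 CPM in the implanted low, middle and high ranges, a ratio of 8.12 between the high and the low range (7.64 to 8.63). It was 8846, 17233 and 59481 in the non-implanted ranges, a ratio of 6.72 (6.13 to 7.38). Bpgm, whose enzyme makes the metabolite that lowers the oxygen affinity of hemoglobin, was at 118, 566 and 9476 in implanted members and at 130, 133 and 7729 in non-implanted members. The gene Mkrn1, a ubiquitin ligase, was 19.3 times (15.3 to 24.6) its low-range level in the implanted and 15.1 times (10.8 to 21.4) in the non-implanted high range. Ube2o, which marks proteins for removal in mouse reticulocytes, was 30.9 and 18.2 times, and Ube2l6 12.1 and 18.3 times its low-range level. Exceptions were Hemgn, a nuclear gene of the erythroid lineage, at 0.441 (0.294 to 0.640) and 0.774 (0.479 to 1.20) times its low-range level, and the glutamine transporter gene Slc38a5, at 0.544 (0.170 to 1.35) and 0.491 (0.0953 to 1.59).

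Antioxidant genes were also higher with the globin share, with 5 of 8 measured higher and 2 lower in the implanted and 4 of 6 higher and 1 lower in the non-implanted high range. Gpx1, glutathione peroxidase, had 6422, 13450 and 35463 CPM in the implanted ranges, and 5736, 8644 and 30707 in the non-implanted ranges. Prdx2, a peroxiredoxin that is among the most abundant red cell proteins, was 1.61 (1.40 to 1.85) and 1.81 (1.53 to 2.13) times as high in the high as in the low range. Catalase, Cat, rested on 3 UMIs in each low range and 59 and 18 in the high ranges.

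Membrane and cytoskeleton genes of the red cell were about 2.09 times (1.95 to 2.24) as high in the implanted high range as in the low one and 2.19 times (1.99 to 2.40) in the non-implanted library. Of 19 measured, 11 were higher and 2 lower in the implanted library, and 15 higher and 0 lower of 19 in the non-implanted library. Epb41, protein 4.1R of the membrane skeleton, had 1273, 3101 and 10589 CPM in the implanted ranges and 556, 2244 and 5640 in the non-implanted ranges. Sptb, beta spectrin, was 0.604 (0.409 to 0.865) times its low-range level in the implanted library and 1.52 (0.970 to 2.33) in the non-implanted library. Counted per all UMIs, globin included, this list and the heme list did not keep their direction everywhere: the membrane list then had log2 ratios of -0.34 and -0.66 in the implanted and non-implanted libraries.

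Genes of earlier stages were lowest in the high range. Car1, a carbonic anhydrase of early erythroid cells, had 1597, 229 and 71.8 CPM in the implanted ranges. In the non-implanted ranges it had 1419, 619 and 0, at least 9.06-fold lower in the high than in the low range when 3 counts are taken as the floor of the range. The progenitor genes Cd34, Gata2 and Muc13 had 0 UMIs in the members of both libraries, and Kit, the stem cell factor receptor, had 1 and 1. Gata1, the erythroid transcription factor gene, had 283, 358 and 71.8 CPM in the implanted ranges and 378, 453 and 52.2 in the non-implanted ranges, with 2 and 1 UMIs in the high ranges. Ribosomal protein genes were 48292, 19165 and 6281 CPM in the implanted ranges, a ratio of 0.130 (0.111 to 0.151) between the high and the low range, and 70912, 34996 and 11384 in the non-implanted ranges, a ratio of 0.161 (0.140 to 0.184). All 38 and 39 measured ribosomal genes were lower in the high range of the implanted and non-implanted libraries. Many of them have processed pseudogenes that can take reads, so single ribosomal genes are uncertain and the sum is given.

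Few interferon-stimulated genes could be measured over the ranges, and their spread over members was unequal. Of 14 listed, 3 were measured in the implanted library, with 2 higher and 1 lower per non-globin UMI in the high range. In the non-implanted library 2 were measured, with 2 higher and 0 lower. Isg15, a ubiquitin-like modifier, had 70.7, 1189 and 5707 CPM in the implanted ranges and 59.1, 553 and 3656 in the non-implanted ranges. One barcode held 34.0% of the Isg15 UMIs of the implanted high range and one held 87.1% of those of the non-implanted high range. The median high-range member had 0.647 and 0.488 Isg15 UMIs per 1000 non-globin UMIs. Isg15 was found in 8 of 15 implanted and 8 of 11 non-implanted high-range members, so its sums lean on few barcodes. Rsad2, viperin, was spread more widely, in 12 of 15 and 7 of 11, with medians of 1.94 and 2.92 UMIs per 1000.

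**Figure D2:**
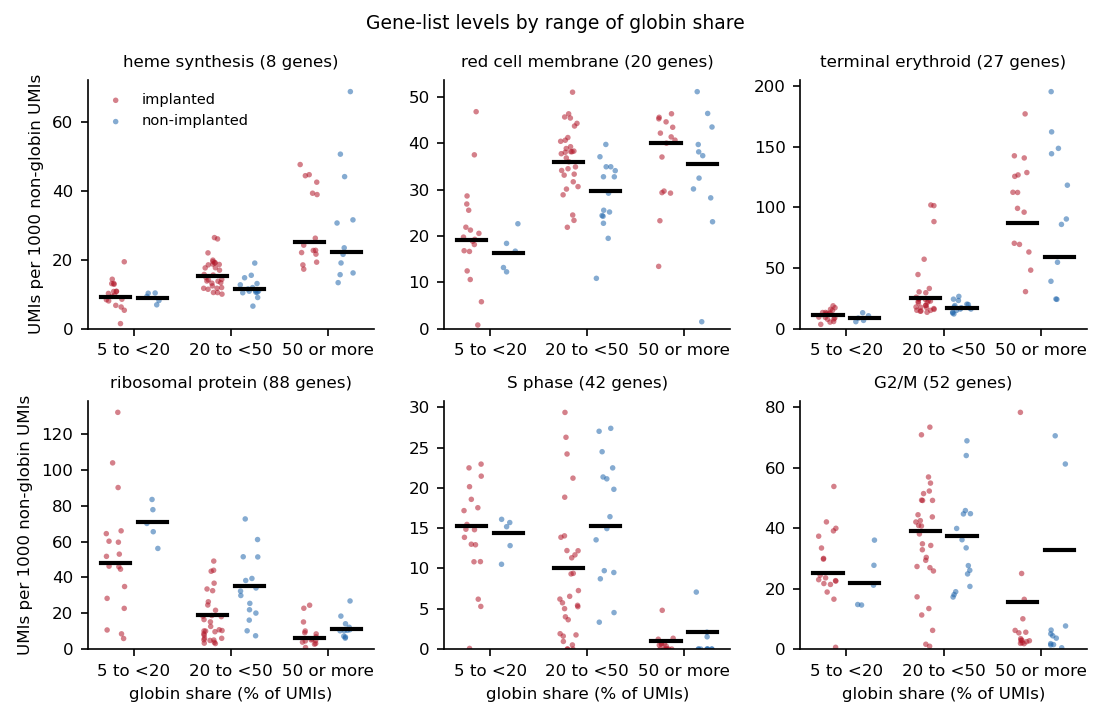
Summed level of 6 gene lists in UMIs per 1000 non-globin UMIs (vertical axes, linear) for each member, by range of globin share (horizontal axes, percent of UMIs), with the implanted library left of the non-implanted library in each range. Points are barcodes and black bars are the level of the UMIs summed over the range. Terminal, heme and membrane genes were higher with the globin share, and ribosomal and S phase genes lower, while the G2/M bar of the non-implanted high range, 32.8, lies far above most of its points.

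Heme synthesis genes were higher as a group in the members with more globin. Their summed level was 9086, 15312 and 25162 CPM in the implanted ranges, a ratio of 2.77 (2.53 to 3.03), and 8976, 11441 and 22247 in the non-implanted ranges, a ratio of 2.48 (2.20 to 2.79). The 8 genes differed in direction. Of 8 genes, 4 were at least 1.5-fold higher and 3 at least 1.5-fold lower in the implanted high range, and 3 higher and 1 lower in the non-implanted high range. Per all UMIs, the log2 ratio of the sum was 0.065 for implanted and -0.48 for non-implanted members, so the gain is relative to the other non-globin transcripts and not to all transcripts of the barcode.

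The first and the last step had the clearest gains. Alas2, which condenses glycine and succinyl-CoA in the mitochondrion and limits the rate of the pathway, had 1414, 3452 and 11414 CPM in the implanted ranges, 8.07 times (6.80 to 9.58) as high in the high as in the low range. In the non-implanted ranges it had 828, 2122 and 10549, a ratio of 12.7 (9.66 to 17.0). The median member had 1.55, 3.16 and 9.67 Alas2 UMIs per 1000 non-globin UMIs in the implanted ranges and 1.01, 2.08 and 14.1 in the non-implanted ranges. Each range's median thus lay above that of the range before it in both libraries, as the sums did. Fech, which inserts iron into protoporphyrin, had 1031, 2292 and 4559 CPM in the implanted ranges, a ratio of 4.42, and 875, 1603 and 2820 in the non-implanted ranges, a ratio of 3.22.

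The cytosolic enzymes were divided. Urod, which trims side chains of the closed ring, was 3.02 times its low-range level in implanted members and 2.74 times in non-implanted members. Alad, which makes porphobilinogen, had 1072, 1232 and 574 CPM in the implanted ranges and 1336, 1227 and 992 in the non-implanted ranges. Uros, which closes the ring, rested on 6 and 3 UMIs in the high ranges. Of the later mitochondrial enzymes, Cpox had 1709, 2442 and 754 in the implanted ranges and 1928, 2034 and 1880 in the non-implanted ranges, and Ppox 289, 516 and 359, and 343, 321 and 470. By summed level, Alad and Cpox were lowest in the high range of both libraries, where Alas2 and Fech were highest. Non-implanted Cpox differed little between the ranges. High-range Alad rested on 16 implanted and 19 non-implanted UMIs, with 75% and 52.6% of them in 1 barcode. High-range Cpox rested on 21 and 36 UMIs, with 28.6% and 58.3% of them in 1 barcode.

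**Figure D3:**
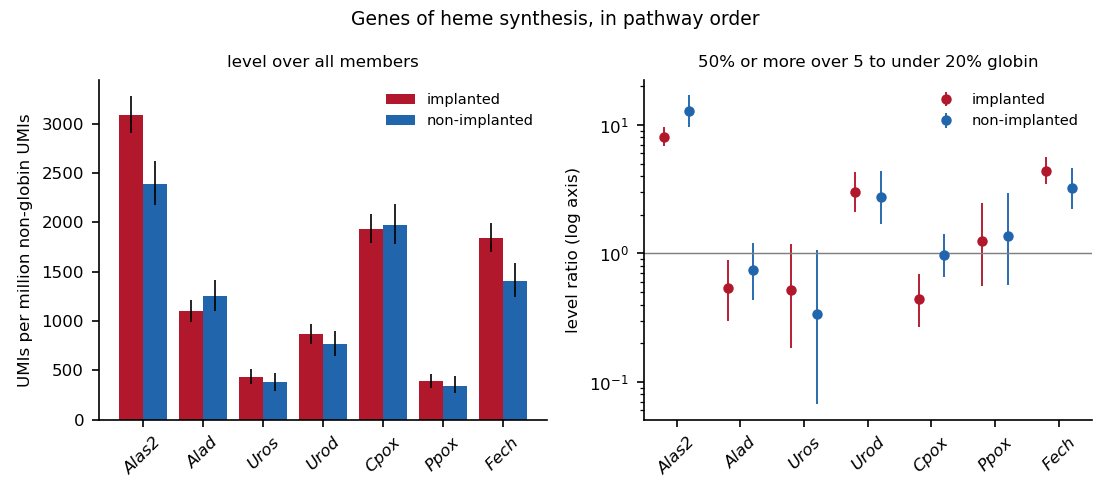
Genes of heme synthesis in pathway order. Left, level over all members in UMIs per 1000000 non-globin UMIs (CPM), implanted left of non-implanted, with exact Poisson 95% intervals as error bars; right, ratio of the level in members with 50% or more globin over those with 5 to under 20% (log axis), with exact conditional 95% intervals. Alas2, at 8.07 for implanted and 12.7 for non-implanted members, and Fech, at 4.42 and 3.22, had the highest ratios.

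Mitochondrial partners of the pathway differed from each other in the same way. Tmem14c, which moves the porphyrin intermediate across the inner membrane, had 3152, 1654 and 0 CPM in the implanted ranges, at least 29.3-fold lower in the high range, and 3631, 2067 and 627 in the non-implanted ranges. Slc25a37, mitoferrin, which brings iron into the mitochondrion, had 1214, 3230 and 3410 in the implanted ranges and 1100, 2321 and 4126 in the non-implanted ranges. The transcript of the importer was thus retained where that of the porphyrin carrier was scarce. Of iron genes, Ftl1, the ferritin light chain, had 1986, 2535 and 6317 in the implanted ranges and 2212, 2487 and 6632 in the non-implanted ranges, and Tfrc, the transferrin receptor, 1214, 1683 and 1364, and 1348, 1680 and 1149. Eif2ak1, the heme-regulated kinase that slows globin translation when heme is short, was 6.09 times (4.03 to 9.20) and 2.48 times (1.31 to 4.56) its low-range level. Ferritin genes have pseudogenes that can share reads.

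The members carried cell cycle transcripts at high levels. G2/M genes summed to 30183 CPM in implanted and 30138 in non-implanted members, against 6790 and 7166 in promyelocyte-range barcodes (at least 1% Mpo, Elane, Prtn3 and Ctsg) and 4245 and 4098 in neutrophil-lineage barcodes. S phase genes summed to 11883 and 13606, against 3968 and 3791 in promyelocyte-range barcodes. After each barcode was thinned to 500 non-globin UMIs, Mki67, which marks cycling cells, was found in 44 of 63 implanted members (69.8%, 57.0 to 80.8) and 19 of 29 non-implanted members (65.5%, 45.7 to 82.1), with 2 non-implanted members below that depth. Unthinned shares were 82.5% and 74.2%. At the same 500 UMIs, Mki67 was in 13.5% and 17.2% of promyelocyte-range and in 4.28% and 4.23% of neutrophil-lineage barcodes, at median non-globin depths of 4078 and 4068 UMIs in the neutrophil-lineage barcodes before thinning. No phase was called per cell.

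The cycle genes were not spread evenly over globin share. With thinning, Mki67 was in 72.2, 93.3 and 33.3% of the implanted low, middle and high ranges, and in 40.0% (2 of 5), 92.9 and 30.0% of the non-implanted ranges. Each of these shares is from a single random draw. Thinned to 1000 non-globin UMIs, members that deep had shares of 93.8, 93.3 and 40.0%, and 100, 100 and 60.0% (3 of 5). Unthinned shares were 83.3, 96.7 and 53.3%, and 100, 93.3 and 36.4%. The high range was lowest in every setting, but the order of the low and middle ranges was not the same in all settings. S phase genes were scarce in the high range of both libraries. The S sum was 15225, 9998 and 969 CPM in the implanted ranges, a ratio of 0.0637 (0.0419 to 0.0928) between the high and the low range, and 14440, 15265 and 2089 in the non-implanted ranges, a ratio of 0.145 (0.103 to 0.198). Pcna and Mcm5, a clamp and a helicase subunit of DNA replication, had 0 UMIs in the high range of both libraries.

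G2/M sums in the high range came from few barcodes. The sum was 25153, 39196 and 15650 in the implanted ranges and 21773, 37394 and 32795 in the non-implanted ranges. One implanted member held 67.2% and one non-implanted member 51.6% of the G2/M UMIs of the high range. At least 20 G2/M UMIs per 1000 non-globin UMIs were found in 15 of 18, 24 of 30 and 2 of 15 implanted members, and in 3 of 5, 12 of 15 and 2 of 11 non-implanted members. The median high-range member had 3.45 (1.79 to 78.3) G2/M UMIs per 1000 for implanted and 4.39 (0.429 to 70.5) for non-implanted members. Most members above 50% globin were thus low in G2/M genes in both libraries, although the sums of the high ranges differed, at 0.622 of the low range for implanted and 1.51 for non-implanted members. Per all UMIs the non-implanted ratio also turned, with a log2 value of -1.20. Of 41 G2/M genes measured in the implanted library, 2 were at least 1.5-fold higher and 29 lower in the high range. The shares over all genes were 19.4% and 66.5%. In the non-implanted library 15 of 33 were higher and 3 lower, against 26.9% and 49.1% of all genes. Ube2c, which targets mitotic proteins for destruction, was 2.63 and 8.19 times its low-range level, unlike most of the list in the implanted library. Its spread over the high-range barcodes was not examined. Ccnd3, cyclin D3, which in mice sets the number of divisions before maturation, had 1308, 444 and 0 CPM in the implanted ranges and 1987, 707 and 209 in the non-implanted ranges. The inhibitor gene Cdkn1b, for p27, had 94.3, 286 and 610, and 59.1, 188 and 313.

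**Figure D4:**
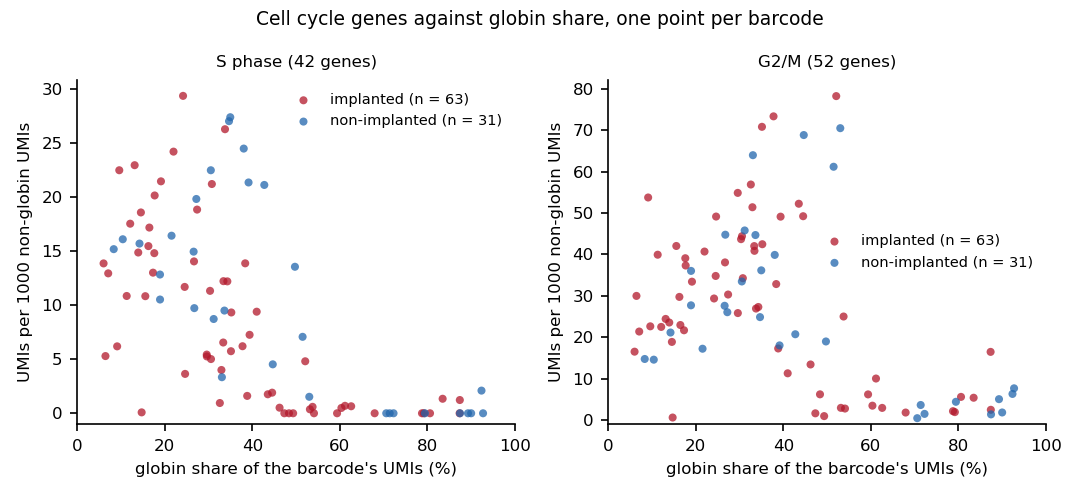
S phase genes (left) and G2/M genes (right) in UMIs per 1000 non-globin UMIs against globin share in percent of UMIs, 1 point per member, implanted in red and non-implanted in blue. Above 60% globin no member reached 20 G2/M UMIs per 1000, and the high-range maxima of 78.3 and 70.5 lie just above 50% globin.

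For the comparison of implanted with non-implanted members, 4134 genes had at least 20 UMIs over both. Of these, 11.5% (476) were at least 1.5-fold higher and 15.2% (627) at least 1.5-fold lower in implanted members on the scale of CPM plus 5, with a median log2 ratio of -0.05. These shares are the background against which list counts are read. The most abundant non-globin transcripts were alike in level: Fth1, ferritin heavy chain, had 11236 in implanted and 11861 in non-implanted members, Car2 9374 and 9239, and Prdx2 7571 and 7766, while Malat1, a nuclear RNA, had 12891 and 8518 and 1 implanted barcode held 17.1% of it.

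Heme synthesis genes differed little between the libraries. None of the 8 reached 1.5-fold in either direction, the median log2 ratio was 0.18, and the summed level was 12992 in implanted and 11433 in non-implanted members, a ratio of 1.14 (1.08 to 1.20). In the other barcodes, where these genes were near 0 (125 and 94.6), the ratio was 1.32. With every barcode given the same weight the log2 ratio of the sum was -0.032, so the direction depends on how members are weighted. Alas2 had 1040 UMIs in 62 implanted members and 464 in 30 non-implanted members, or 3084 (2900 to 3277) and 2390 (2177 to 2617) CPM, a ratio of 1.29 (1.16 to 1.44). Within the low, middle and high ranges that ratio was 1.71, 1.63 and 1.08. Fech had a ratio of 1.31 and Alad of 0.877 (0.744 to 1.03). Of 14 mitochondrial support genes 2 were higher, Isca1, an iron-sulfur cluster assembly gene, and Slc25a38, the glycine importer, and 2 lower, Clpx and Nfs1. Iron genes summed to 16313 CPM in implanted and 17165 in non-implanted members, with 2 of 10 higher, Ncoa4 and Ireb2, on 21 and 20 implanted UMIs.

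Terminal maturation genes were higher in implanted members for part of the list. Of 25 measured, 6 were at least 1.5-fold higher and 0 lower, with a median log2 ratio of 0.41. That median was 0.032 with every barcode given the same weight and 0.033 after thinning to 500 non-globin UMIs, so it depends on how members are weighted. The summed level was 23241 CPM in implanted and 17747 in non-implanted members, a ratio of 1.31 (1.26 to 1.36), and the ratio was 1.22, 1.48 and 1.47 within the low, middle and high ranges. In other barcodes the ratio of these genes was 1.11. Implanted members above the non-implanted median of the same range numbered 13 of 18, 23 of 30 and 10 of 15, so the libraries overlapped in every range.

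The gene Xpo7, an exportin that takes part in nuclear maturation of mouse erythroid cells, had 484 UMIs in 23 implanted members and 68 UMIs in 6 non-implanted members, a log2 ratio of 2.02. One non-implanted barcode held 67.6% of its library's UMIs. In the implanted ranges Xpo7 had 1, 194 and 289 UMIs, and in the non-implanted ranges 0, 0 and 68. In the implanted middle range 9 of 30 members had a UMI, and the 4 with the highest values had globin shares of 46.2 to 49.3%, just under the limit of the high range. Tmcc2 had 580 and 141 UMIs in 48 and 21 members, a log2 ratio of 1.24. Trim58, a ubiquitin ligase linked to enucleation in mice, had 22 UMIs in 17 implanted members and 2 in 2 non-implanted members, a ratio of 6.33 (1.56 to 55.6). The other 3 were Bcl2l1, the survival gene for BCL-XL (120 and 33 UMIs), Ypel4 (69 and 20) and Ube2o (169 and 59). Bpgm, at 1076 and 881 CPM, and Hemgn, at 2678 and 2616, were among the 19 that did not reach 1.5-fold. Among membrane genes Epb41 was the one of 20 that did, at 2799 and 1844 (1.52, 1.34 to 1.72), and Slc4a1, the band 3 anion exchanger, had 3348 and 2590.

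Ribosomal protein genes were lower in implanted members. Of 52 measured, 26 were at least 1.5-fold lower and 0 higher, the median log2 ratio was -0.58, and the summed level was 32760 in implanted and 48307 in non-implanted members, a ratio of 0.678 (0.660 to 0.697). Within the low, middle and high ranges the ratio was 0.681, 0.548 and 0.552, and 15 of 18, 24 of 30 and 12 of 15 implanted members lay below the non-implanted median of their range. In all other barcodes the ratio of the same genes was 1.10 (1.09 to 1.10). The list's difference thus ran the other way outside the members, and in the members the median of non-globin UMIs was lower for implanted members in the low and middle ranges, while in the high range it was higher, 2029 against 744, at a ratio of 0.552. The part of depth and of stage within a range was not tested.

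S phase genes were lower in implanted members, with 11 of 40 at least 1.5-fold lower, 0 higher and a median log2 ratio of -0.20. The summed level was 11883 and 13606, a ratio of 0.873 (0.831 to 0.918). By range the ratio was 1.05 (0.985 to 1.13) in the low, 0.655 (0.608 to 0.706) in the middle and 0.464 (0.274 to 0.775) in the high range. The high-range ratio rests on 27 and 40 UMIs, of which 1 barcode held 66.7% and 1 held 80%. By member the high-range medians were 0.365 and 0 S phase UMIs per 1000, with 8 of 15 implanted members above the non-implanted median. That median is at the floor, and 1 UMI puts a member above it. Median depths in the high range were 2029 and 744 non-globin UMIs, so these medians give no direction. In the middle range 25 of 30 implanted members lay below the non-implanted median. Rrm2, a subunit of ribonucleotide reductase, had 1409 and 1488, and Slbp, the histone mRNA binding protein gene, 949 and 1169. G2/M genes had a summed ratio of 1.00 (0.970 to 1.03), with 4 of 50 higher and 3 lower. Mki67 had 4703 and 4486, Top2a 1450 and 1452 and Hmgb2 1744 and 2199. Ccnd3 was lower in implanted members, 842 against 1215, a ratio of 0.693 (0.581 to 0.827).

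**Figure D5:**
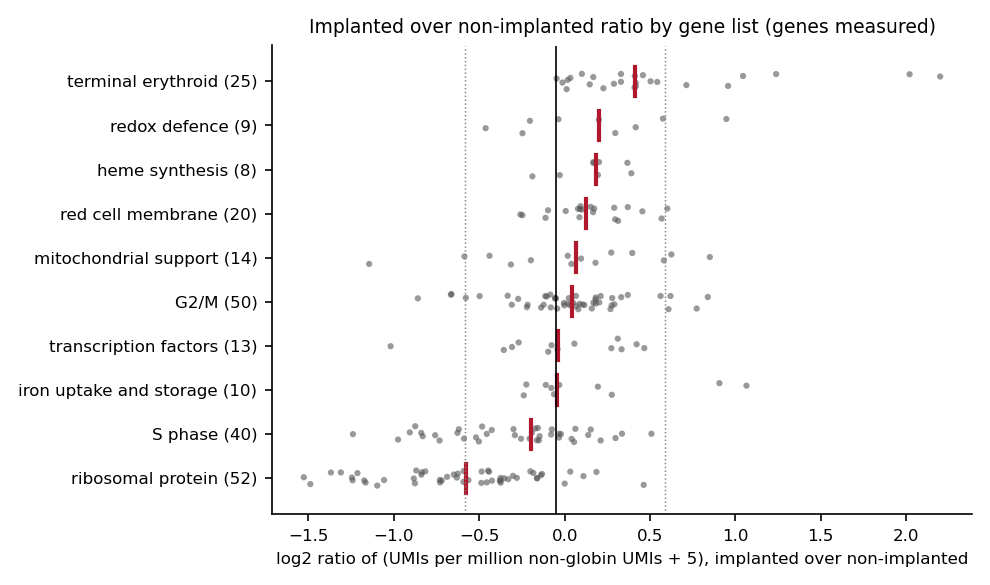
Log2 ratio of (CPM + 5), CPM being UMIs per 1000000 non-globin UMIs, implanted over non-implanted (horizontal axis), for the measured genes of 10 lists (rows, number of genes in brackets). Grey points are genes, red bars are list medians, the solid line is the median of all 4134 genes, -0.05, and dotted lines mark 1.5-fold. Among the lists drawn, terminal genes have the highest median, 0.41, and ribosomal protein genes the lowest, -0.58.

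The difference in stress genes depended on single barcodes. Of 16 immediate-early and heat shock genes 7 were higher and 3 lower in implanted members with a median log2 ratio of 0.24, but the member with 3 erythroid markers held most UMIs of Fos, Fosb and Atf3, and the ratio of the summed list was 1.91, 0.821 and 0.600 in the low, middle and high ranges. Without the members that had fewer than 5 erythroid markers the median was -0.17, and without those of at least 1% S100a8 and S100a9 as well it was -0.38. Hspa1b, an inducible heat shock gene, was lower, with 45 UMIs in 12 implanted members and 85 in 8 non-implanted members. Isg15 had 337 and 125 UMIs in 32 and 15 members, a ratio of 1.55 (1.26 to 1.92), and Rsad2 216 and 61 in 34 and 13, a ratio of 2.04 (1.53 to 2.76), and without the members that stood apart these ratios were 1.69 and 2.23, while Ifitm3 had a ratio of 0.757 (0.477 to 1.21). Glucocorticoid-responsive genes were nearly absent, with 3 of 12 measured. Dusp1 had 228 and 237 CPM, the receptor gene Nr3c1 119 and 124, and Zfp36, the third, 41 UMIs in 3 implanted members, 80.5% of them in 1 barcode, and 5 in 2 non-implanted members.

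Gene by gene, 507 genes had a counting interval of the ratio that excluded 1, at least 5 barcodes with a UMI and no barcode with 50% or more of the UMIs in the higher library, ribosomal, mitochondrial and unnamed genes set aside. Of these 507, out of 4134 genes measured, 252 were higher and 255 lower in implanted members. By the 1.5-fold call alone 476 were higher and 627 lower, so the near-equal split holds only under these limits. The highest ratio belonged to Ccdc92b, with 23 UMIs in 16 implanted members and 0 in non-implanted members, at least 4.41-fold higher when 3 counts over the group are taken as the floor. Tbcel had 101 UMIs in 23 implanted members and 12 in 5 non-implanted members, a ratio of 4.85 (2.66 to 9.69), and the others were Camkmt, Klhl25, Il1r1, Xpo6, Stx12, Alg9 and Trim58 on 19 to 27 implanted UMIs. Apoe, a lipoprotein gene of macrophages, had 59 UMIs in 24 implanted members and 5 in 5 non-implanted members, and its level in other barcodes was also higher in the implanted library, 1725 against 862 CPM. Without the members that stood apart Apoe had 38 and 5 UMIs, a ratio of 4.70 (1.85 to 15.3). The part of stray RNA in this value was not tested. The lowest ratios were those of Wsb1, Rabl6, Ttc9c, Sympk, Xist, Hspa1b, Parg, Ndufb2, Prelid1 and Tonsl. Xist, the RNA of the inactive X chromosome, had 44 UMIs in 10 implanted members and 88 in 8 non-implanted members, 130 and 453 CPM, against 84.1 and 98.5 in other barcodes. Both libraries pooled males and females, and how many members each sex gave cannot be told apart from implantation.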

How the data were processed

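The deposited matrices hold UMI counts per gene and barcode, without normalization, and per the file headers they are output of Cell Ranger 3.0.1. Seurat and the builds mm10 and GRCm38 are also given, per the submitters' processing notes. The annotation release is not given in the sources used here, so coordinates are GENCODE M21 and promoter sequences RefSeq. A dissection protocol for other ages in the labels was not used. The members, gene lists and naming rules were chosen with earlier results of these data known.

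UMIs were summed over members per library and divided by non-globin UMIs (10 globin genes left out of the total). Rows that share a symbol were summed. Log2 ratios of single genes, their medians and the calls are of level plus 5, over genes with at least 20 UMIs, and calls need 1.5-fold. Other ratios, those with an interval and those of list sums among them, are of levels without the 5. Counts carry exact Poisson, conditional, Clopper-Pearson or Newcombe intervals, and UMIs are taken as independent. Genes were named by abundance, list membership (heme genes, and up to 6 by level in other lists), ratio between libraries and ratio to other barcodes; exceptions named for a small count were chosen after their values were seen, as were the globin-range, marker-count and standing-apart alternatives. The calculation was tested on simulated data. Tools were scipy 1.17.1, numpy 2.4.6, pandas 2.3.3, scanpy 1.11.5 and matplotlib 3.10.9 under Python 3.11.15. Values of some single genes are not reported here, and list sums and counts include them.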

Additional observations from a re-analysis of the deposited data

Results flagged for a closer look

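Outside the rule, 15 of 3149 implanted (0.476%) and 7 of 3513 non-implanted barcodes (0.199%) had less than 5% globin and at least 5 of the 11 non-globin erythroid markers. The comparisons above do not use these barcodes. As many markers were found in 1 of 2360 and 2 of 2860 neutrophil-lineage barcodes, which are among the 3149 and 3513. Of the 15 and 7, 13 implanted and 6 non-implanted barcodes met the other limits. These had median globin shares of 0.682% and 0.559%, 22859 and 28329.5 UMIs and 5264 and 6202.5 genes. Their erythroid marker level was 12164 and 10139 per 1000000 non-globin UMIs (CPM), with Car1 at 2842 and 2459, Alas2 at 88.6 and 39.7, Myb at 77.0 and 178, ribosomal protein genes at 80563 and 82033 and S phase genes at 10235 and 8606. In members the same quantities were 27956 and 25668 for the markers, 904 and 906 for Car1, 3084 and 2390 for Alas2, 32760 and 48307 for ribosomal protein genes and 11883 and 13606 for S phase genes. The other 2 implanted barcodes had the platelet gene Pf4 at 49850 CPM. Deep barcodes can reach 5 markers with few UMIs of each, and the part of depth was not tested.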

How the results depend on the processing

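Of 387 values of 33 results under the alternatives tried, 327 stayed within the counting interval or within 1.5 times the count, 55 moved further and 5 reversed, and the cause was not tested. As reported, 476 genes were higher and 627 lower in implanted over non-implanted members, with a median log2 ratio of -0.05. The log2 ratios of the summed lists were 0.18 for heme, -0.20 for S and 0.00 for G2/M genes. Every ratio in this paragraph, those between ranges included, and every median of gene ratios is a log2 value. No value moved with S100a8 and S100a9 below 1%, globin of at least 10%, the largest barcode of each library left out, or a pseudocount of 1 or 20. Leaving out the highest doublet scores removed 0 members and dropping the mitochondrial filter left every gene value as it was, so neither tests the results. With every UMI in the denominator, 377 genes were lower, the median was 0.076, and heme, S and G2/M ratios were 0.32, -0.064 and 0.13. In that setting the log2 ratios of the high over the low range in the implanted library were 0.065 for heme, -0.34 for membrane, 1.62 for terminal, -4.35 for ribosomal, -5.38 for S and -2.09 for G2/M genes, and in the non-implanted library -0.48, -0.66, 0.96, -4.43, -4.58 and -1.20. With at least 20% globin, members were 1.43% of implanted barcodes, heme, S and G2/M ratios were 0.35, -0.61 and -0.053, and the immediate-early median was -0.65. With every barcode given the same weight, 779 genes were higher and the heme, S and G2/M ratios were -0.032, -0.30 and 0.10. Thinning to 500 non-globin UMIs left 92 genes higher and 59 lower, with a median of 0.073, an S ratio of -0.43 and medians of 0.54 for mitochondrial support and -0.20 for redox genes, and thinning to 1000 gave an S ratio of -0.68. Each thinned value is a single random draw: the expected S ratio over draws was -0.32 at 500 and -0.48 at 1000, and another draw at 1000 gave S levels of 9339 and 12750 CPM. A minimum of 50 UMIs gave 183 higher and 209 lower, and a minimum of 1 UMI gave 4173, 2758 and a median of 0.11. With terciles of globin share the implanted heme, membrane and G2/M ratios between ranges were 1.31, 0.96 and -1.11, and the non-implanted membrane, terminal and G2/M ratios 0.91, 2.56 and 0.45. With at least 2 erythroid markers the non-implanted membrane and G2/M ratios between ranges were 1.29 and 0.75. Of the alternatives chosen after seeing the data, equal weight for the globin ranges gave 972 genes lower, a median of -0.16, an S ratio of -0.28 and a G2/M ratio of -0.20. At least 5 erythroid markers gave an implanted terminal log2 ratio between ranges of 2.92, against 3.02 as reported. That setting gave non-implanted membrane and G2/M log2 ratios of 1.30 and 0.79, against 1.13 and 0.59 as reported. Leaving out the members that stood apart gave heme and G2/M ratios of 0.29 and 0.055, an immediate-early median of -0.38, implanted heme and terminal ratios between ranges of 1.30 and 2.92 and non-implanted membrane and G2/M ratios of 1.30 and 0.79. No paired analysis was possible because each group is 1 library and the labels give no replicate numbers, and for the same reason no library could be left out. Depth limits what the high range can show, with a median of 744 non-globin UMIs in the non-implanted library.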

Other observations

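At least 5% globin with another limit broken was found in 4 implanted and 3 non-implanted barcodes. Their globin shares had medians of 15.7% and 15.4%, and their neutrophil-lineage genes stood at 216039 and 126725 per 1000000 non-globin UMIs (CPM) against 2894 and 2384 in members. Monocyte and macrophage genes stood at 4143 and 443, against 29.7 and 36.1. The broken limits are on genes of these lists, so the higher sums follow in part from how the barcodes were chosen.

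Hbb-bt made up less of the beta globin UMIs in members of high globin share. The median Hbb-bt percent of beta globin was 29.8, 21.6 and 19.5 in the implanted low, middle and high ranges and 28.3, 26.8 and 19.5 in the non-implanted ranges, with overlap between neighbouring ranges.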
